A study of Mus musculus with 2 samples.

Results

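The 10 genes described here were the 3 neurofilament subunits Nefl, Nefm and Nefh and 7 genes of the perineuronal net, namely the lecticans Acan, Bcan and Ncan, the link proteins Hapln1, Hapln2 and Hapln4, and tenascin-R (Tnr). They were chosen by name, and are 10 of the 25556 genes in the count table. Single nuclei were profiled from the brainstem of a mouse model of Dravet syndrome, an epilepsy caused by loss of function of the sodium channel gene Scn1a. The HET library came from a mouse with an A1783V and a WT allele of Scn1a, bred from a male with floxed Scn1a and a Sox2-Cre female, and the WT library came from a littermate with intact Scn1a. Sox2-Cre is active in the early embryo, so recombination is not limited to the brain. Both mice were female, on the C57Bl6 background, untreated and at postnatal day 41, and each genotype had 1 library.

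Neurofilaments are the intermediate filaments of axons, built from a light (Nefl), a medium (Nefm) and a heavy (Nefh) subunit, and they contribute to the calibre of large myelinated axons. Perineuronal nets are a dense matrix around the soma and proximal dendrites of selected neurons, in which hyaluronan chains carry lecticans, link proteins fasten the lecticans to the hyaluronan, and tenascin-R crosslinks the lecticans. In the brainstem they surround large neurons of auditory, vestibular and motor nuclei, and Hapln2 belongs to a related matrix at the nodes of Ranvier.

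The count table held 9259 WT and 9022 HET nuclei with 70301390 and 66176778 UMIs (unique molecular identifiers, 1 per captured RNA molecule), and a median of 5456 and 5646 UMIs per nucleus. The libraries shared 23 cell barcodes. The authors assigned 16 clusters, 9 of them neuronal, and 34 subclusters. Levels are UMIs of a gene per 1000000 UMIs of the nuclei summed (counts per 1000000, CPM), and ratios are log2 of HET over WT. Intervals, given in parentheses, are exact 95% intervals that cover counting error only, and genotypes could not be tested against each other, as each had 1 library. The A1783V change cannot be read from the counts, and Scn1a itself stood at 380.2 CPM in WT and 420.4 CPM in HET. Clusters neuron.6, neuron.8, neuron.9 and epend.2 held 120, 44, 35 and 108 WT nuclei but 5, 9, 2 and 6 HET nuclei, so no genotype ratio was formed there. The cluster named micro held 405 nuclei, and all 185 nuclei of its subcluster 18 carried a neuronal reference label, with 429 CPM of the neuronal gene Rbfox3 and 1.97 CPM of the microglial gene Csf1r.

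The neurofilament genes were highest in small neuronal clusters. Nefm, the medium subunit, was at 522 CPM (486 to 559) in neuron.8, a cluster of 53 nuclei with the motor neuron genes Chat (158 CPM) and Isl1 (65.6 CPM), against 151 CPM over neuron.1, the largest neuronal cluster with 9111 nuclei. In neuron.8, Nefl stood at 194 CPM (173 to 218) and Nefh at 71.4 CPM (58.7 to 86.1). The serotonergic cluster neuron.7, with 1298 CPM of the serotonin synthesis gene Tph2, was lowest for all 3 subunits. There Nefl was at 26.8 CPM (17.2 to 39.9), Nefm at 59.2 CPM (44.3 to 77.4) and Nefh at 8.93 CPM (3.86 to 17.6). The interval of neuron.7 lay below that of the next lowest cluster for Nefl, and overlapped with it for Nefm and Nefh. The highest values of all, 1056 CPM of Nefl, 830.1 CPM of Nefm and 237 CPM of Nefh, were in neuron.9. That cluster had 37 nuclei with a median of 2034 UMIs, and its WT nuclei had a median of 6.64% mitochondrial and 11.1% ribosomal protein UMIs, against 0.245% and 0.577% in WT neuron.1. The part of RNA quality in its levels was not tested.

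Among neuronal clusters of more than 100 nuclei, neuron.3 was highest for Nefm, at 219 CPM (207 to 233), and for Nefh, at 54.9 CPM (48.7 to 61.6). Within neuron.1 the subclusters differed. Subcluster 1, with 2225 nuclei, had 224 CPM of Nefm and 47.3 CPM of Nefh, whereas subcluster 0, with 2864 nuclei, had 111 CPM and 21.3 CPM. The neuron-like subcluster 18 of micro reached 281 CPM of Nefm. Nefm and Nefh rose and fell together, with a Pearson r of 0.89 over 16 neuronal subclusters with at least 50 nuclei (without subcluster 21, which mixes nuclei of 3 neuronal clusters), and Nefl and Nefm had an r of 0.85, all from the same 2 libraries.

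Neurofilament RNA was also found in nuclei that should lack it. In oligodendrocyte nuclei whose reference label matched their cluster, Nefl was at 95.8 CPM, which was 125% of its level over all neuronal clusters. Nefm was at 111 CPM there, or 70.4%, and Nefh at 29.1 CPM, or 86.5%. In astrocytes Nefl reached 134% of the neuronal level, Nefm 61.3% and Nefh 88.8%. The neuronal genes Rbfox3, Snap25 and Meg3 were at 10.8%, 21.01% and 10.8% of their neuronal level in the same oligodendrocyte nuclei. Nefl therefore did not separate neurons from glia in these nuclei, whereas Nefm in neuron.1 lay above its levels in oligo and astro, and the part of free RNA in their levels was not tested. Nefl and Nefm lie on chromosome 14 on opposite strands, and the annotated span of Nefm (GRCm38, 68082590 to 68124846) covers that of Nefl (68083863 to 68089095). The authors ran Cell Ranger with its recommended settings, under which reads are counted on the sense strand.

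**Figure D1:**
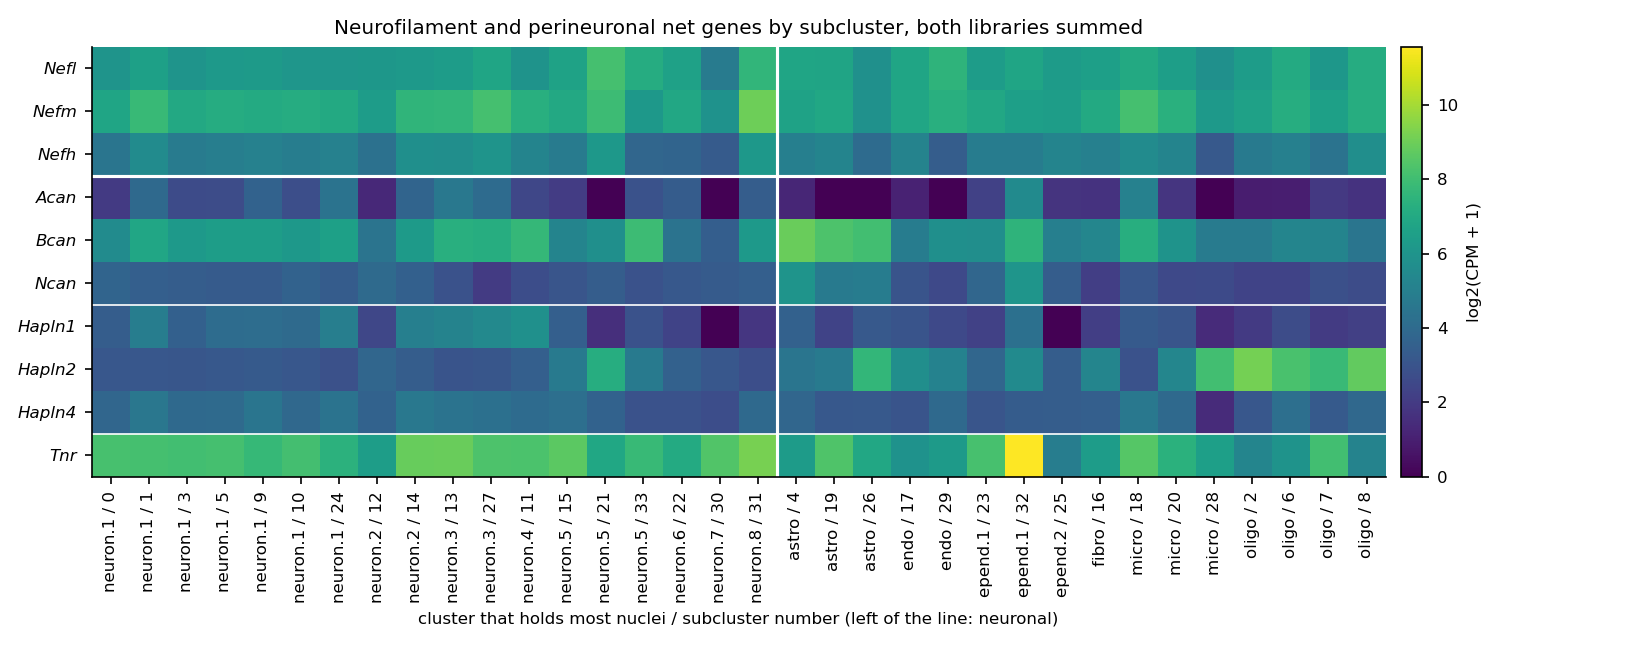
Level of each gene (rows) in each of the 34 subclusters (columns, named by the cluster that holds most of their nuclei), both libraries summed, as log2(CPM + 1). Bcan and Ncan are bright in astro, Hapln2 in oligo and Tnr in epend.1 subcluster 32 (3028 CPM), while the 3 neurofilament rows carry signal in neurons and glia alike.

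The lecticans differed in where their RNA was found. Aggrecan (Acan), the lectican most used to mark nets, was mainly neuronal. It was at 23.5 CPM (19.5 to 28.04) in neuron.3, a cluster with 166 CPM of the glycine transporter gene Slc6a5, at 7.69 CPM in neuron.1, at 1.06 CPM in astro and at 1.68 CPM in oligo. No Acan UMI was counted in neuron.7, where a count of 0 leaves an exact upper limit of 4.12 CPM. Within neuron.1, Acan was highest in subcluster 24, at 20.2 CPM, and subcluster 18 of micro had 32.9 CPM beside 86.8 CPM of Pvalb, a calcium-binding protein of many net-bearing neurons. The share of nuclei with an Acan UMI was 6.10% in neuronal clusters (median depth 8055 UMIs) and 0.530% in oligo (median depth 2807 UMIs), and 0.540% and 0.190% after every nucleus was thinned to 1000 UMIs.

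Brevican (Bcan) and neurocan (Ncan), lecticans of the wider brain matrix, were highest in astrocytes among the clusters. Bcan was at 439 CPM (420.4 to 458) in astro, 208 CPM (198 to 219) in neuron.4 and 159.9 CPM (149 to 171) in neuron.3, and the 3 intervals did not overlap. The cluster neuron.4 carried 125 CPM of the vesicular glutamate transporter gene Slc17a7. Ncan was at 54.3 CPM (47.8 to 61.3) in astro and at 10.5 CPM in neuron.1. Within astro, subcluster 4 had 486 CPM of Bcan and 62.6 CPM of Ncan, and subcluster 26 had 269 CPM and 28.04 CPM. Bcan in neuronal clusters was at 19.8% of its astro level, and the astrocyte gene Slc1a2 at 1.90%.

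The link proteins split between neurons and oligodendrocytes. Hapln1, the link protein needed to build nets, was highest in neuron.4, at 54.6 CPM (49.3 to 60.3), then in neuron.3, at 38.5 CPM (33.3 to 44.2), and no Hapln1 UMI was counted in neuron.7. Hapln2, the link protein of nodes of Ranvier, was at 411 CPM (400.04 to 422) in oligo, which held 78.8% of its UMIs, and at 7.90 CPM in neuron.1. Hapln4, a link protein of brainstem and cerebellar nets, fell gradually over the order of the clusters. Its top cluster was neuron.3, at 19.6 CPM (16.01 to 23.8), its last was neuron.7, at 5.58 CPM (1.81 to 13.03), and each cluster's interval overlapped that of the next in order, while those of the top and last clusters were apart. Over the same 16 neuronal subclusters, the levels of Bcan and Hapln1 had a Pearson r of 0.89, and those of Acan and Hapln1 one of 0.70. The share of the neuronal level found in astrocytes was 51.2% for Hapln1, 66.5% for Hapln4, 13.5% for Acan and 39.1% for Tnr, and in oligodendrocytes 17.5%, 62.8%, 19.9% and 36.3%.

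Several of these genes are genomic neighbours with different patterns. Bcan and Hapln2 lie on the same strand of chromosome 3, 21.5 kb apart with no protein-coding gene between them, yet Bcan stood at 30.3 CPM in oligo and Hapln2 at 48.97 CPM in astro. Ncan and Hapln4, 2.22 kb apart on chromosome 8, also differed, with Ncan first in astro and Hapln4 first in neuron.3. Acan and Hapln3, another link protein gene, lie 2 bases apart on chromosome 7, and Hapln3 had 52 UMIs in all, too few to order the clusters. Hapln1 and the lectican gene versican (Vcan) lie 43.7 kb apart on chromosome 13, and Vcan was first in epend.1, at 181 CPM.

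The promoters of Bcan and Hapln2 are shown because these adjacent genes were highest in different glia, and that of Tnr because its highest level was in a group with precursor markers, described further on. They come from RefSeq (GRCm38.p6), each 5′ to 3′ on the strand of the gene, from 250 bases before to 50 bases after its start. Bcan is at chr3:88000307-88000606 (minus strand), Hapln2 at chr3:88027462-88027761 (minus strand) and Tnr at chr1:159523519-159523818 (plus strand). RefSeq promoters were matched for 6 of the 10 genes, without Nefl, Nefm, Nefh and Hapln4. Capitals mark matches on either strand to ACAAAG, the core letters bound by SOX factors, or to TTGGC, letters bound by NFI factors.
Bcan: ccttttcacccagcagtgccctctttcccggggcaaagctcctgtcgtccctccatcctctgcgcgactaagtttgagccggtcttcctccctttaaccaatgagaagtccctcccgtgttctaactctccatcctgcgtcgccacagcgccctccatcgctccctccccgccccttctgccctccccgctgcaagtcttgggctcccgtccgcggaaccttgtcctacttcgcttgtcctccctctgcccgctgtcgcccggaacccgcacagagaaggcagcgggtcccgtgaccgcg
Hapln2: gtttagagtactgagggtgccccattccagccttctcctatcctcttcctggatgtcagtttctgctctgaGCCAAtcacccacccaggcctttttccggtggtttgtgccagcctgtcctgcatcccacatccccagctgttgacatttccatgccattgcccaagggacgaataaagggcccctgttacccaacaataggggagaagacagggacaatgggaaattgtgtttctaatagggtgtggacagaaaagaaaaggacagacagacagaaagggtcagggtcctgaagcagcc
Tnr: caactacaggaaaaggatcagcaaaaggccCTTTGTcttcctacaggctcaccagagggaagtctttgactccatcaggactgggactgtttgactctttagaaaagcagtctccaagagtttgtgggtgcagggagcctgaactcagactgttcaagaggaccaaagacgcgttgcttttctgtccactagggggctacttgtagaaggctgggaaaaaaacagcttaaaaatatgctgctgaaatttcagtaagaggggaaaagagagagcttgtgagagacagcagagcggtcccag

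The Tnr promoter held 1 match to ACAAAG, the Hapln2 promoter 1 match to TTGGC, and the Bcan promoter 0 matches to either. Of all 32851 promoters of the same length, 18.7% held the first and 46.7% the second. The GC content over the 300 bases was 64% for Bcan, 52% for Hapln2 and 48% for Tnr.

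Tenascin-R, a glycoprotein made by oligodendrocyte lineage cells and some neurons, had its highest cluster level in epend.1, at 747 CPM (682 to 816). Next were neuron.8, at 591 CPM (553 to 631), and neuron.3, at 438 CPM (420.2 to 456). The epend.1 value came from subcluster 32, where Tnr was at 3028 CPM. Its 50 nuclei, 47 WT and 3 HET, carried the oligodendrocyte precursor genes Vcan (1049 CPM), Pdgfra (791 CPM), Sox10 (451 CPM) and Cspg4 (340.5 CPM), whereas the cilia gene Dnah12, at 2257 CPM over epend.1, was at 27.6 CPM. The deposited ependymal name went against the markers of this subcluster, which also held 46.01 CPM of Acan and 64.4 CPM of Ncan. In the serotonergic cluster neuron.7, where Acan and Hapln1 had no UMI, Tnr was at 339 CPM (302 to 379.8).

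**Figure D2:**
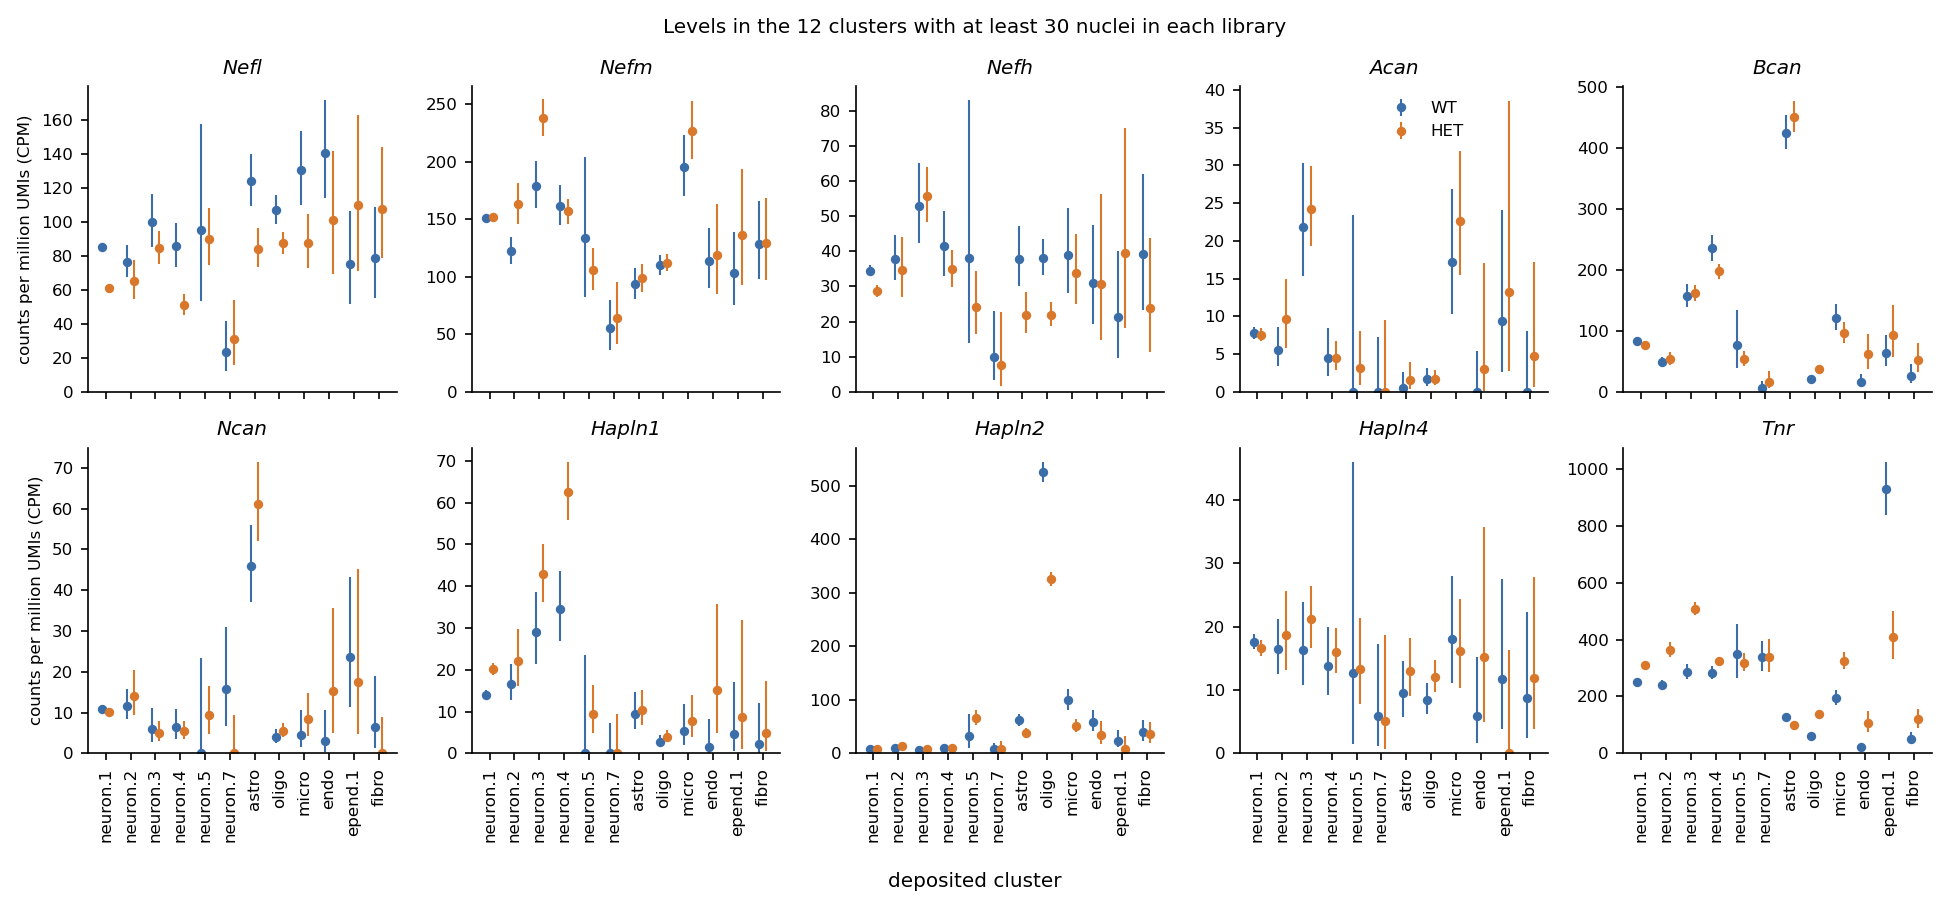
Level of each gene in CPM (vertical axes, from 0) in the 12 clusters where both libraries had 30 nuclei or more (horizontal axis), for WT (blue) and HET (orange), with exact 95% Poisson intervals. Hapln1 lies higher in HET in neuron.1, neuron.3 and neuron.4, Hapln2 lower in HET in oligo, and Tnr higher in HET in neuron.1 to neuron.4.

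Inhibitory and glutamatergic nuclei were compared within each library. A neuronal nucleus was called inhibitory with at least 5 UMIs of Gad1, Gad2, Slc32a1 and Slc6a5 together and at least 5 times as many as of Slc17a6, Slc17a7 and Slc17a8, and glutamatergic in the reverse case. There were 1107 inhibitory and 134 glutamatergic nuclei in WT, and 785 and 225 in HET. Median depths were 12196 and 17564 UMIs in WT, and 11610 and 15332 UMIs in HET. Cluster neuron.4, highest for Hapln1, gave 31 of the WT and 56 of the HET glutamatergic nuclei. The neuronal gene Rbfox3 was at 211 CPM in inhibitory against 344 CPM in glutamatergic nuclei in WT, and at 225 CPM against 392 CPM in HET. The part of depth and cluster in the differences between these classes was not tested. Hapln1 was lower in inhibitory nuclei in both libraries. It was at 16.2 CPM against 29.9 CPM in WT (log2 ratio −0.88, −1.23 to −0.52) and at 25.9 CPM against 52.02 CPM in HET (−1.01, −1.27 to −0.74). Nefm was at 161 CPM against 234 CPM in WT and at 168 CPM against 265 CPM in HET. For Acan the interval covered 0 in both libraries, with 11.9 CPM against 16.6 CPM in WT and 14.04 CPM against 13.5 CPM in HET. Nefl, Nefm, Nefh, Bcan, Hapln1 and Tnr had intervals below 0 in both libraries, and 0 of the 10 genes had intervals above 0 in both. Of all genes with at least 100 UMIs in these nuclei, 4.91% lay below 0 in both libraries and 6.19% above. When any UMI of 1 class and none of the other was enough, with 2619 inhibitory and 1497 glutamatergic WT nuclei, the WT ratios changed sign for Nefh (0.032) and Bcan (0.13).

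Nuclei rich in Acan also carried more neurofilament and Hapln1 RNA. With at least 3 Acan UMIs there were 25 WT and 13 HET neuronal nuclei, 15 and 7 of them in subcluster 1 of neuron.1. Their median depths were 35258 and 29919 UMIs, against 7445.5 and 8077 in neuronal nuclei without Acan. Nefm was at 452 CPM against 141 CPM in WT and at 417 CPM against 141 CPM in HET. Nefh had the same order, at 99.2 CPM against 31.9 CPM in WT and 113 CPM against 27.4 CPM in HET, as had Hapln1, at 37.7 CPM against 12.6 CPM and 66.9 CPM against 22.2 CPM. Of the 9 genes other than Acan, Nefl, Nefm, Nefh, Bcan, Hapln1 and Tnr had intervals of the log2 ratio above 0 in both libraries and 0 had intervals below it, beside 3.67% and 4.97% of all genes. Markers of fast-firing neurons differed from each other there. The potassium channel gene Kcna1 was at 328 CPM against 133 CPM in WT and 332 CPM against 139 CPM in HET, with intervals of the log2 ratio above 0. Kcnc1, another potassium channel gene, was at 88.3 CPM against 121 CPM in WT, with an interval below 0, and at 149 CPM against 125 CPM in HET, where the interval covered 0 as it did for Pvalb in both libraries (22.8 CPM against 23.7 CPM and 20.6 CPM against 18.3 CPM).

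Deeper nuclei are more likely to show 3 Acan UMIs, so nuclei of 5000 to 15000 UMIs were also compared by having at least 1 Acan UMI, an alternative chosen after seeing the data. There, 144 WT and 168 HET nuclei had Acan, and they were still deeper, with medians of 10296 against 8225 UMIs in WT and 10526 against 8384 UMIs in HET. Nefm was at 186 CPM against 120.4 CPM in WT and 246 CPM against 119 CPM in HET, and Hapln1 at 22.1 CPM against 11.4 CPM and 40.8 CPM against 18.1 CPM. Bcan was at 147 CPM against 75.9 CPM and 137 CPM against 80.6 CPM, and Hapln4 at 27.4 CPM against 16.2 CPM and 27.2 CPM against 14.2 CPM. These 4 genes, Nefl and Nefh had intervals of the log2 ratio above 0 in both libraries within this window, as had 4.08% of all genes. No member had intervals below 0 in both, beside 4.84% of all genes. The part of depth in these differences was not tested. In that window Slc6a5 was at 139.8 CPM against 86.7 CPM in WT and 124 CPM against 57.02 CPM in HET, while Gad2 was at 46.8 CPM against 75.2 CPM and 57.3 CPM against 78.4 CPM. Of the other inhibitory genes, Slc32a1 had intervals that covered 0 in both libraries, and Gad1 had one below 0 in WT only. With at least 3 Acan UMIs, Slc6a5 was at 72.4 CPM against 91.2 CPM in WT, where the interval covered 0. In HET it was at 97.7 CPM against 59.1 CPM, with an interval above 0.

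The genes whose levels were most like those of each member, over the 33 subclusters with at least 50 nuclei and among 8975 genes, often marked the same cell type. Hapln2 was closest to Trim59 (Pearson r 0.97), Gatm (0.97) and the myelin gene Mog (0.97). Ncan was closest to Ptprz1 (0.85), a receptor that binds matrix proteins, Rimklb (0.81) and Gpam (0.80), and for Bcan the closest included Sfxn5 (0.81) and Mir9-3hg (0.77). Hapln1 was closest to the axonal potassium channel gene Kcna2 (0.76), Myo19 (0.75) and Mir124-2hg (0.75). Hapln4 and Acan also had a channel or synaptic gene among their matches. Those of Hapln4 included Rell2 (0.76) and the synaptotagmin gene Syt2 (0.76), and Acan was closest to Gm26633 (0.86), A930029G22Rik (0.81) and the channel subunit gene Kcnab2 (0.80). Tnr was closest to Gm42948 (0.81), Lhfpl3 (0.80) and Gm28960 (0.79). Nefm was closest to Syt2 (0.77), Nefh (0.75) and Eif2ak3 (0.74), Nefh to Nefm, Prim1 (0.71) and Mrpl4 (0.67), and Nefl to Dynll2 (0.69), Mrpl12 (0.69) and Polr2k (0.68).

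Between the genotypes, 1 of the 10 genes was past 1.5-fold over all nuclei. Hapln1 was higher in HET, and 0 of the 10 were lower by that much. Of all genes with at least 100 UMIs, 7.46% were past 1.5-fold higher and 13.6% lower. The median log2 ratio was −0.27 for the 3 neurofilament genes and 0.064 for the 7 net genes, against −0.10 for the 16347 genes with at least 200 UMIs. Intervals lay above 0 for Bcan, Hapln1 and Tnr, lay below 0 for Nefl, Nefh and Hapln2, and covered 0 for Nefm, Acan, Ncan and Hapln4. Of all genes, 27.2% had an interval above 0 and 47.5% below 0. With the all-gene median subtracted, Hapln2 stood at −0.035 and Nefl at −0.34.

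In the 3 largest clusters, members were past 1.5-fold in oligo and astro. In neuron.1, 0 of the 10 genes were past the fold, where 6.34% of all genes were higher and 12.3% lower. In oligo, 7 of the 10 genes had at least 100 UMIs, of which 2 were higher (Bcan and Tnr, beside 6.57% of all genes) and 2 were lower (Nefh and Hapln2, beside 12.8%). In astro 7 had as many UMIs, of which 0 were higher (beside 4.68%) and 2 were lower (Nefh and Hapln2, beside 13.2%).

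**Figure D3:**
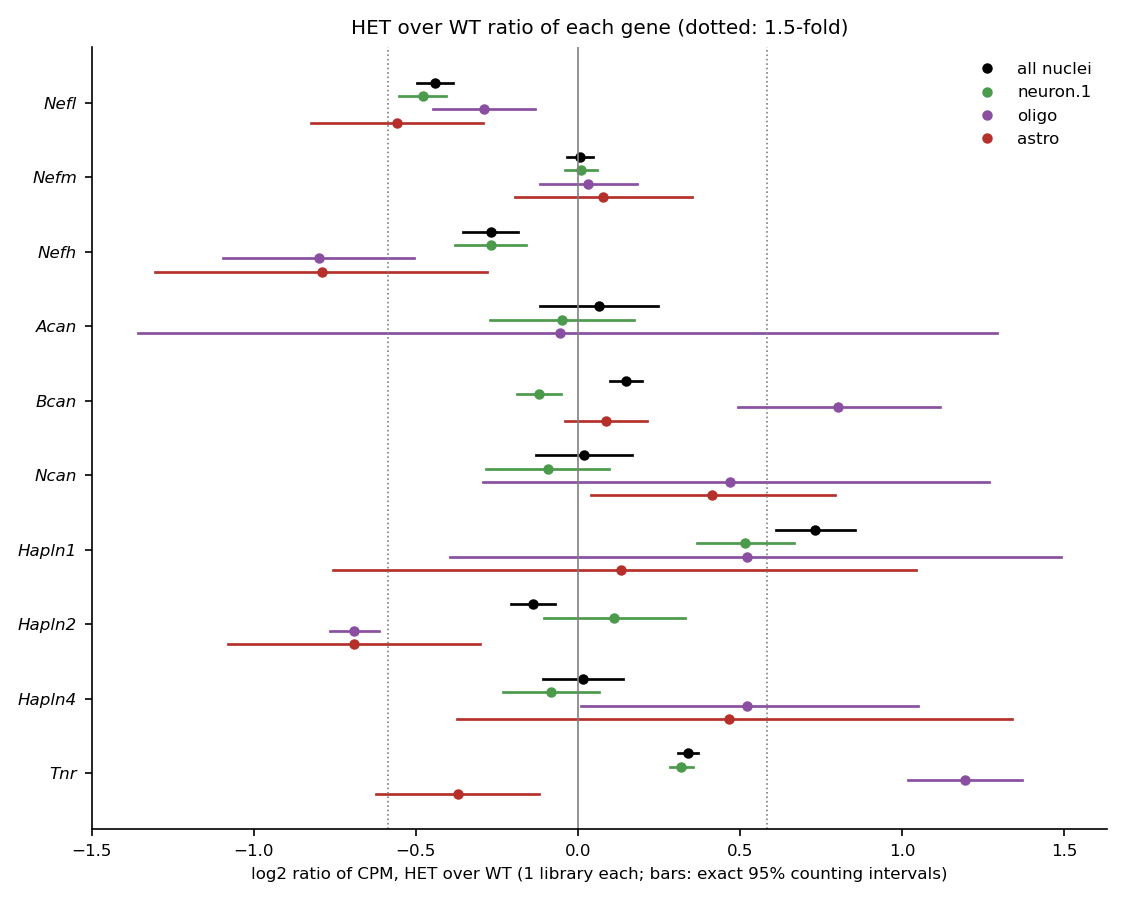
Log2 ratio of CPM, HET over WT, for each gene over all nuclei, neuron.1, oligo and astro (points with exact 95% counting intervals, 1 library per genotype, genes with at least 20 UMIs). Hapln1 lies right of the dotted 1.5-fold line over all nuclei (0.73), Nefl lies left of 0 in all 4 sets, and Bcan and Tnr have points on both sides of 0.

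The neurofilament subunits did not move together. Nefl was at 92.2 CPM in WT and 67.9 CPM in HET, with a log2 ratio of −0.44 (−0.50 to −0.39). Nefh was at 35.9 CPM and 29.8 CPM (−0.27, −0.36 to −0.18), whereas Nefm was at 151 CPM and 152 CPM (0.0057, −0.034 to 0.045). Nefl was lower in HET in 9 of the 12 clusters where both libraries had 30 nuclei or more, with an interval below 0 in 5 and above 0 in 0. Nefm had intervals above 0 in 2 clusters, neuron.2 (122 CPM and 163 CPM) and neuron.3 (179 CPM and 238 CPM), and below 0 in 0. The lower Nefl and Nefh levels were also seen in glia, with Nefl at 124 CPM in WT and 84.1 CPM in HET in astro and 107 CPM and 87.4 CPM in oligo. Nefh was at 38.2 CPM and 21.9 CPM in oligo (−0.80, −1.09 to −0.51), while the neuronal gene Rbfox3 in the same nuclei was at 15.4 CPM and 39.3 CPM.

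Subcluster 1, the filament-rich subcluster of neuron.1, was mostly WT, with 1714 WT and 511 HET nuclei. In it Nefm was at 202 CPM in WT and 277 CPM in HET (0.46, 0.37 to 0.54) and Nefh at 42.99 CPM and 57.4 CPM (0.42, 0.24 to 0.60), while Nefl was at 95.4 CPM and 92.2 CPM (−0.050, −0.19 to 0.083). Among subclusters with at least 20 UMIs of the gene, Nefm had an interval above 0 in 5 of 28 and below 0 in 1. Nefl had an interval below 0 in 14 of 28, above 0 in 1 and covering 0 in 13. Nefh had one below 0 in 7 of 21, covering 0 in 13 and above 0 in 1, which was subcluster 1. In subcluster 0, with 1288 WT and 1576 HET nuclei, Nefl was at 76.7 CPM and 50.5 CPM (−0.60, −0.75 to −0.45) and Nefh at 25.4 CPM and 18.1 CPM (−0.49, −0.74 to −0.24). Nefh was thus higher in HET in the subcluster rich in filament RNA and lower in the largest subcluster, and no test of that difference was possible. With the same weight for each subcluster in both libraries, the neurofilament median in neuron.1 was −0.092 in place of −0.27.

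The ratios of all genes also moved with the length of the gene. Over all nuclei the median log2 ratio was −0.36 for the 3933 genes with an annotated span under 10 kb, −0.15 for the 7278 genes of 10 to 50 kb, −0.017 for the 2350 genes of 50 to 100 kb and 0.10 for the 2542 genes over 100 kb. Nefl (5.23 kb) at −0.44 lay below the median of its class, and all the other members lay above theirs. Among short genes these were Nefh (9.31 kb) at −0.27, Hapln2 (5.83 kb) at −0.14 and Hapln4 (7.41 kb) at 0.016. Bcan (12.7 kb), Ncan (27.8 kb) and Nefm (42.3 kb) fell in the second class. Acan (61.6 kb) and Hapln1 (71.9 kb) fell in the third and Tnr (408 kb) in the fourth, and the part of gene length in the ratios was not tested.

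**Figure D4:**
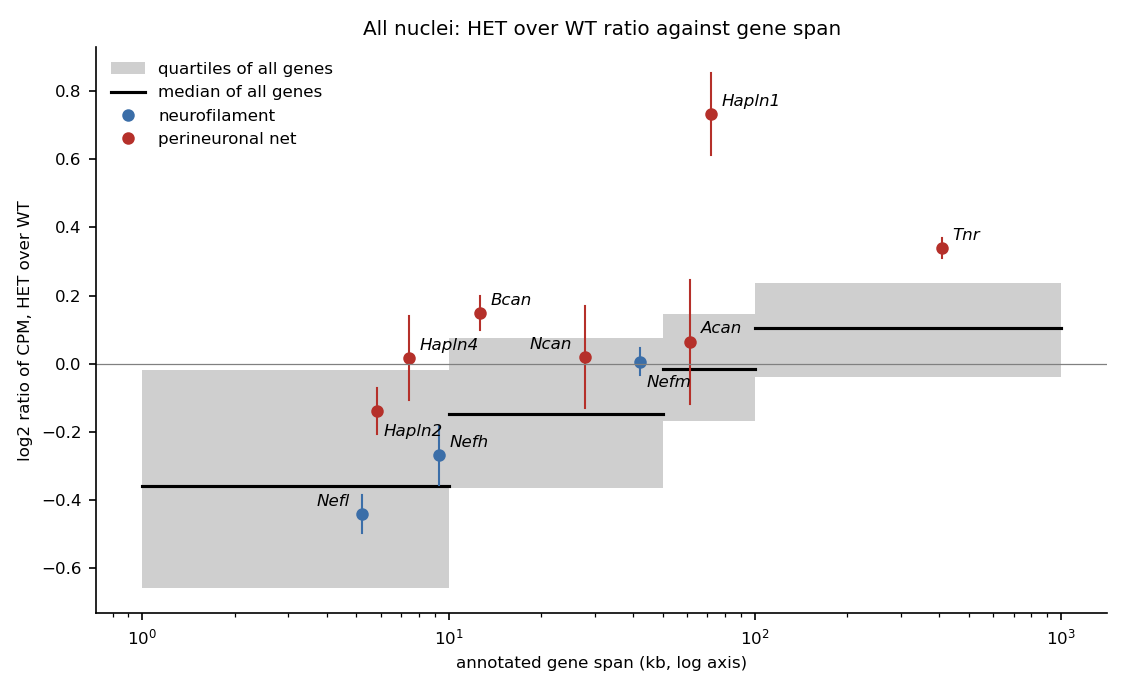
Log2 ratio of CPM, HET over WT over all nuclei (vertical axis), against annotated gene span in kb (log axis) for the 3 neurofilament genes (blue) and the 7 net genes (red), with exact 95% counting intervals, and with the median (black lines) and quartiles (grey boxes) of all genes in 4 span classes. The class medians run from −0.36 under 10 kb to 0.10 over 100 kb, and Hapln1, Tnr, Bcan and Hapln4 lie above the upper quartile of their class.

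Hapln1 was higher in HET in every cluster and subcluster that had at least 30 nuclei in each library and at least 20 Hapln1 UMIs. Over all nuclei it was at 12.97 CPM in WT and 21.6 CPM in HET (0.73, 0.61 to 0.85). Neuron.4 and neuron.3, where Hapln1 was highest, held more HET nuclei, with 114 WT and 339 HET in neuron.4 and 143 and 319 in neuron.3. The part of this mix in the ratio over all nuclei was not tested. In neuron.4 Hapln1 was at 34.6 CPM and 62.4 CPM (0.85, 0.48 to 1.25), in neuron.3 at 29.1 CPM and 42.8 CPM (0.56, 0.078 to 1.05), and in neuron.1 at 14.1 CPM and 20.1 CPM (0.52, 0.37 to 0.67). The clusters numbered 6 and the subclusters 11, with an interval above 0 in 3 and 7 of them. The subcluster ratios ran from 0.24 to 1.81, the latter in subcluster 9 of neuron.1, where Hapln1 was at 7.94 CPM and 27.9 CPM. The direction was the same in inhibitory nuclei (16.2 CPM and 25.9 CPM) and in glutamatergic nuclei (29.9 CPM and 52.02 CPM). Vcan, its neighbour on chromosome 13, was at 18.1 CPM and 17.2 CPM (−0.079, −0.20 to 0.037).

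Over all nuclei, the lecticans differed less between the libraries than Hapln1 did. Acan was at 7.18 CPM in WT and 7.51 CPM in HET over all nuclei (0.064, −0.12 to 0.25), and at 12.8 CPM and 17.8 CPM in subcluster 1 of neuron.1 (0.48, 0.15 to 0.81). With the same cluster weights in both libraries its ratio over all nuclei was 0.48. That setting weighs clusters with few Acan UMIs, such as endo (0 in WT and 1 in HET) and neuron.5 (0 and 4), like neuron.1. In neuron.1 there were 377 and 307 Acan UMIs, with a log2 ratio of −0.048. The interval covered 0 in all 6 clusters that held 20 Acan UMIs or more. The part of small counts in the value of 0.48 was not tested. Ncan was at 45.9 CPM and 61.1 CPM in astro (0.41, 0.040 to 0.79), and in astrocytes whose reference label matched the ratio was 0.31 with an interval that covered 0. Bcan was at 425 CPM and 451 CPM in astro (0.086, −0.041 to 0.21) and at 82.8 CPM and 76.1 CPM in neuron.1 (−0.12, −0.19 to −0.053).

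The Bcan ratio in neuron.1 depended on how its subclusters were pooled. It turned to 0.15 when each subcluster had the same weight in both libraries, and subcluster 1, which had 114 CPM of Bcan, was mostly WT. Bcan was higher in HET in subcluster 3 (67.4 CPM and 79.1 CPM) and subcluster 9 (74.3 CPM and 100.1 CPM), and lower in subcluster 5 (90.99 CPM and 79.5 CPM). In oligo, where its level was low, Bcan was at 21.2 CPM and 37.02 CPM (0.80, 0.49 to 1.12). Of the neuronal markers in the same nuclei, all 4 stood higher in HET, from Snap25 (120.5 CPM and 146 CPM) to Rbfox3 (15.4 CPM and 39.3 CPM). Of the astrocyte markers, Slc1a2 (62.6 CPM and 82.3 CPM) and Slc1a3 stood higher, while Aqp4, Gja1 and Gfap stood lower (17.1 CPM and 15.6 CPM for Gfap). Bcan in oligo was at 6.67% of its astro level, and the part of RNA from other cells in its ratio was not tested. Hapln4 was at 15.7 CPM and 15.9 CPM over all nuclei (0.016, −0.11 to 0.14).

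Hapln2 was lower in HET oligodendrocytes. It was at 525 CPM in WT and 326 CPM in HET in oligo (−0.69, −0.77 to −0.61). Over all nuclei, where oligo made up 1767 WT and 2382 HET nuclei, the ratio was −0.14, and −0.54 with the same cluster weights in both libraries. At least 1 Hapln2 UMI was seen in 71.8% of WT and 57.9% of HET oligo nuclei (median depths 2738 and 2853.5 UMIs), and in 40.3% and 27.2% after thinning to 1000 UMIs. In neuronal clusters, where it should be absent, the shares were 7.34% and 8.53% (median depths 7729 and 8390 UMIs), and 1.05% and 1.24% after thinning. Fewer nuclei thus held Hapln2 in HET oligo at equal depth, well above the share in neurons in both libraries. The median share of ribosomal protein UMIs was 1.02% in WT and 0.576% in HET oligo, and that of mitochondrial UMIs 0.675% and 0.867%. The ribosomal share was lower in HET in all 16 clusters (0.577% and 0.333% in neuron.1), and its part in the ratios was not tested.

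Most oligo subclusters came mainly from 1 library. Subcluster 8 had 825 WT and 35 HET nuclei, subcluster 6 had 39 and 827, and subcluster 7 had 133 and 730. In subcluster 2, with 768 and 789 nuclei, Hapln2 was at 688 CPM and 456 CPM (−0.60, −0.70 to −0.49), and in subcluster 7 at 256 CPM and 214 CPM (−0.26, −0.48 to −0.034). In subclusters 6 and 8 the intervals covered 0. In oligo the log2 ratio was −0.18 for the lineage gene Mog and −0.58 for Sox10, and the median of oligo genes with a span under 10 kb was −0.48.

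Tnr was higher in HET in 9 of the 12 clusters and 23 of the 27 subclusters with at least 20 of its UMIs. Over all nuclei it was at 234 CPM in WT and 296 CPM in HET (0.34, 0.31 to 0.37). The ratio was 0.10 when each of the 12 clusters counted equally in both libraries. Small clusters, among them epend.1 where Tnr was lower in HET, then weighed as much as neuron.1. The part of epend.1 in that value was not tested. In neuron.3 Tnr was at 287 CPM and 508 CPM (0.82, 0.68 to 0.97), in neuron.2 at 241 CPM and 364 CPM (0.59, 0.45 to 0.74), and in neuron.1 at 249.97 CPM and 312 CPM (0.32, 0.28 to 0.36). Subcluster 27, whose main cluster was neuron.3, had 14 WT and 100 HET nuclei, and its part in the neuron.3 ratios was not tested. The direction of the Tnr ratio was the opposite in astro, at 127 CPM and 98.4 CPM (−0.37, −0.62 to −0.12). All 4 precursor markers stood lower in the same HET nuclei, with Pdgfra at 16.1 CPM and 5.38 CPM, Sox10 at 37.4 CPM and 19.6 CPM, Cspg4 at 10.4 CPM and 4.23 CPM and C1ql1 at 26.01 CPM and 10.4 CPM, and their part in the Tnr ratio was not tested. Tnr was also lower in HET in epend.1, at 927 CPM and 409 CPM, where subcluster 32 with its precursor markers was nearly all WT. Within astro, Tnr was at 70.2 CPM and 87.2 CPM in subcluster 4 and at 459.8 CPM and 187 CPM in subcluster 19, so the lower HET level was not shared by the largest astro subcluster.

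In oligo, Tnr was at 60.9 CPM in WT and 139 CPM in HET (1.19, 1.02 to 1.37), and a few nuclei held much of it. There, 7 WT and 24 HET nuclei with at least 10 Tnr UMIs held 44.9% and 71.1% of its UMIs. In HET these nuclei had 417 CPM of Vcan and 137 CPM of Pdgfra, against 6.39 CPM and 4.43 CPM in the other oligo nuclei. They also had less of the mature gene Mog, at 540.2 CPM against 881 CPM, and of Hapln2, at 114 CPM against 332 CPM. Without them Tnr was at 34.1 CPM in WT and 41.5 CPM in HET (log2 ratio 0.28), a fall that follows in part from choosing the nuclei by Tnr itself. In subcluster 2, which both libraries share, it was at 32.8 CPM and 40.8 CPM (0.32, −0.094 to 0.73).

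**Figure D5:**
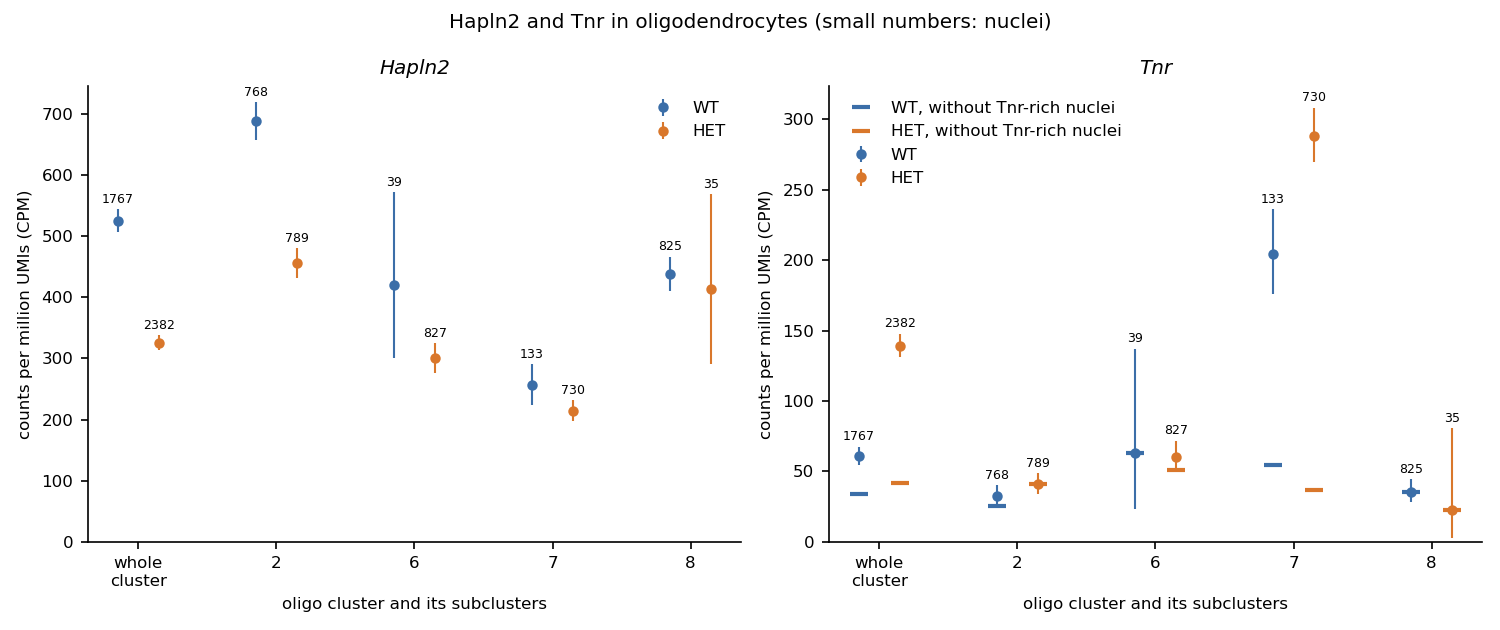
Level of Hapln2 and Tnr in CPM (vertical axes, from 0) in the oligo cluster and its 4 subclusters for WT (blue) and HET (orange), with exact 95% Poisson intervals, where small numbers give the nuclei and the short bars give the Tnr level without nuclei of at least 10 Tnr UMIs. Hapln2 lies lower in HET in subcluster 2, and the high Tnr levels of subcluster 7 fall to 54.4 CPM in WT and 36.6 CPM in HET without the Tnr-rich nuclei.

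Related genes of the filaments and of the net's supply and turnover moved in both directions. Over all nuclei 38.3% of genes with at least 200 UMIs were higher in HET. Of 18 other filament and axonal cytoskeleton genes with at least 200 UMIs, 7 were higher and 11 lower in HET (median log2 ratio −0.044). They ran from the dendritic microtubule gene Map2 (0.27) and the synaptic vesicle gene Syn1 (0.10) to the filament genes Vim (−1.28) and Prph (−1.30). Prph marks motor neurons, and neuron.8 with its motor neuron genes was mostly WT. In neuron.1 Prph was at 3.64 CPM in WT and 2.80 CPM in HET (−0.38, −0.73 to −0.030). The part of neuron.8 in the Prph ratio over all nuclei was not tested. Of 17 further net and hyaluronan genes, 9 were higher and 8 lower (median 0.062). Among them were the hyaluronan synthase gene Has1 (0.65, 26.7 CPM and 41.8 CPM) and the hyaluronan receptor gene Cd44 (0.64) at the top, and Cspg5 (−0.58) and Otx2 (−1.52) at the bottom. Otx2, a homeobox protein made in the choroid plexus, had 152 UMIs in WT and 50 in HET, and epend.2, with 16347 CPM of the choroid plexus gene Ttr, was mostly WT. The part of epend.2 in the Otx2 ratio was not tested.

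The enzymes that build and cut the net's sugar chains are given beside the same share of all genes. Of 19 chondroitin sulfate synthesis genes, 7 were higher and 12 lower (median −0.064), from the sulfotransferase genes Chst3 (0.55) and Chst7 (0.52) to B3gat3 (−0.42) and Chpf2 (−0.65). Of 16 matrix proteases, inhibitors and degrading enzymes, 6 were higher and 10 lower (median −0.085), from the inhibitor genes Timp1 (0.89) and Timp3 (0.50) to the hyaluronidase genes Hyal2 (−0.97) and Hyal1 (−1.29). Over all nuclei, all 4 medians lay above that of all genes. In neuron.1, where the median of all genes was −0.097, those of chondroitin sulfate synthesis (−0.17) and of proteases, inhibitors and degrading enzymes (−0.12) lay below it. Those of the filament (−0.073) and net (−0.080) lists lay above it.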

How the data were processed

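Nuclei from the brainstem of 1 WT and 1 HET mouse were sequenced with 10x Chromium 3' v3.1 chemistry. The authors aligned reads with Cell Ranger (version not given in the sources used here) to mm10, and filtered, clustered and labelled nuclei in Seurat 4.1. The deposited table held raw UMI counts per gene and nucleus with mitochondrial, hemoglobin and some other genes left out, and 0 columns belonged to other samples. The authors also deposited a doublet score and the percent of mitochondrial and ribosomal protein UMIs per nucleus, and listed every nucleus as a singlet. Deposited cluster names were kept, and marker genes served to check them.

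UMIs were summed per library and cluster and divided by the total of the same nuclei (CPM). Intervals were exact at 95%, Poisson for levels, conditional binomial for ratios and Clopper-Pearson for shares, and covered counting error only, not differences between mice. Ratios were formed where each library had at least 30 nuclei, and counts over clusters used genes with at least 20 UMIs there. With 1 library per genotype no test was run, and a gene was called past 1.5-fold among genes with at least 100 UMIs. Positions came from GENCODE genes on GRCm38, and 24921 genes of the table had 1 position. The 10 members, Vcan and Hapln3 are all named. Each related list is given by its counts and its 2 largest and 2 smallest ratios among genes with at least 200 UMIs, and each member by the 3 genes of at least 2000 UMIs with the highest Pearson r of log2(CPM + 1) over subclusters of at least 50 nuclei, and some of the genes so chosen are not reported here. The members and lists were chosen with earlier results of these data known. The scripts were tested on simulated data. Sums and intervals were computed with scipy 1.17.1, pandas 2.3.3 and numpy 2.4.6 under Python 3.11.15, and plots with matplotlib 3.10.9. Alternatives changed the scaling, the nuclei, the cluster weights, the depth and the thresholds. With the same cluster or subcluster weights, each cluster or subcluster with at least 30 nuclei in each library counted equally, whatever its number of nuclei.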

Additional observations from a re-analysis of the deposited data

Results flagged for a closer look

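The ratios of Bcan and Tnr had opposite signs in different cell types, with counting intervals on either side of 0. For Bcan the log2 ratio of HET over WT was 0.80 in oligo (124 UMIs in WT and 292 in HET) and −0.12 in neuron.1. In the same oligo nuclei the astrocyte gene Slc1a3 stood higher in HET, while the astrocyte genes Aqp4, Gja1 and Gfap stood lower. The log2 ratio there was 0.39 for the astrocyte gene Slc1a2, 0.47 for the neuronal gene Meg3 and 1.35 for Rbfox3. For Tnr it was 0.32 in neuron.1 and −0.37 in astro (269 and 256 UMIs), where the precursor markers Pdgfra and Sox10 were at −1.58 and −0.93. Each value rests on 1 library per genotype, and the differences between cell types were not tested.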

How the results depend on the processing

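No paired analysis was possible because each genotype has 1 library, and none could be left out. Of 285 alternative values, 226 lay within the counting interval of the reported value, 56 moved outside it or by more than 1.5 times, and 3 turned a ratio whose interval had excluded 0. These were Bcan in neuron.1 with the same subcluster weights in both libraries (0.15), and Nefh (0.032) and Bcan (0.13) between WT inhibitory and glutamatergic nuclei under the looser rule. The neurofilament median over all nuclei, −0.27, was −0.17 with the all-gene median subtracted and −0.43 as a mean over nuclei of CPM, which equals thinning to 1000 UMIs by construction. In neuron.1 it was −0.092 with the same subcluster weights. At a fold of 2 the count of members was 0. The net median ran from 0.056 to 0.18 over all nuclei under the alternatives run, and from −0.084 to 0.15 in neuron.1 (−0.048 as summed), where its sign thus depended on the setting. The share of all genes past 1.5-fold higher was 12.9% with at least 1 UMI in each library and 3.74% with at least 1000 UMIs. The cause of these shifts was not tested. The alternative without ribosomal, mitochondrial and hemoglobin genes removed ribosomal protein genes only. At least 3 Acan UMIs within 5000 to 15000 UMIs left 2 nuclei in each library and was not run. With at least 1 Acan UMI in that window, the Acan-rich nuclei's ratio of Nefm fell to 0.63 in WT from 1.68. Leaving out neuron.9, epend.1 subcluster 32 or the clusters with under 30 nuclei in a library, the oligo alternatives and the depth-matched Acan comparison were chosen after seeing the data.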
